A study of Homo sapiens with 12 samples.

Results

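SCD and 9 other genes of fatty acid synthesis were followed through 12 RNA libraries of SK-OV-3 cells. The set was SCD, FASN, ACACA, ACLY, ELOVL5, ELOVL6, FADS1, FADS2, ACSS2 and SREBF1, taken by symbol from 59391 symbols, and each of the 10 was present in every library's values. The genes were chosen by name with measured values of these libraries known, above all the FPKM of SCD, higher under IN10018 than in DMSO and higher in the combination than under doxorubicin. IN10018 against DMSO and the combination against doxorubicin are therefore given as values without a test. The combination against DMSO also sets libraries with IN10018 against libraries without it, so SCD is given there without a p, and the calls and p-values of the other members there are a description that is not independent of the choice. The same holds there for genes of other lists, some of which were named for their difference with IN10018. SK-OV-3 is a long-established human ovarian carcinoma line that carries extra copies of ERBB2. Cells were cultured for 24 h with DMSO, with 300 nM doxorubicin (an anthracycline that traps topoisomerase II on DNA), with 3 μM IN10018 (an inhibitor of focal adhesion kinase, FAK), or with both agents at these doses, which is called the combination. Each treatment had 3 libraries. All came from 1 line in culture, and no source used here states whether libraries of the same treatment were grown as separate cultures, so p-values measure the spread between libraries, which may be technical.

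Fatty acid synthesis begins in the cytosol with acetyl-CoA, which ATP citrate lyase (ACLY) makes from citrate and acyl-CoA synthetase short chain family member 2 (ACSS2) makes from acetate. Acetyl-CoA carboxylase alpha (ACACA) turns it into malonyl-CoA, and fatty acid synthase (FASN) joins malonyl-CoA units into palmitate with NADPH. ELOVL6 lengthens palmitate to stearate, stearoyl-CoA desaturase (SCD) puts the double bond into stearate and palmitate that makes them monounsaturated, and FADS1, FADS2 and ELOVL5 desaturate and lengthen polyunsaturated chains. SREBF1 encodes SREBP-1, the membrane-bound transcription factor that is cut loose in the Golgi when sterols are low and that drives most genes of this pathway. Tumour cells, those of the ovary among them, are known for making fatty acids themselves, and SCD supplies the oleate of their membranes and lipid droplets.

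Bases before the start of SCD and of SREBF1 are shown because these genes had the largest differences with IN10018 in the set, and because SREBP-1 acts through promoters with nearby NF-Y and Sp1 sites. The windows come from RefSeq (GRCh38.p14), where 9 of the 10 genes had an entry and FASN had none. Windows of 250 bases up to the RefSeq start were searched. In SCD the last 109 of these bases and in SREBF1 the last 16 lie inside the gene as GENCODE places it, and only the 141 and 234 bases before it are printed, SCD on the plus strand at chr10:100346983-100347123 and SREBF1 on the minus strand at chr17:17837003-17837236. Capitals mark CCAAT, the core of NF-Y sites, and GGGCGG, the core of Sp1 sites, each on either strand (ATTGG and CCGCCC on the other).
SCD: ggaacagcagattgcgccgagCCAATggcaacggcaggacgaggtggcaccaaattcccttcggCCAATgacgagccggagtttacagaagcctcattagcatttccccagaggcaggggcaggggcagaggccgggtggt
SREBF1: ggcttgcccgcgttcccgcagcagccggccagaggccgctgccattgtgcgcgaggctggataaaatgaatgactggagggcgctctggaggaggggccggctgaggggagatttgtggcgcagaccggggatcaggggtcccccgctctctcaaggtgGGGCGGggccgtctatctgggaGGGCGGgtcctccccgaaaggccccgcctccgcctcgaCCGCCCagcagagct
The SCD window held 2 CCAAT matches, with their first bases 229 and 186 bases before the RefSeq start, and 2 CCGCCC matches at 33 and 11 bases before it, which are in the stretch inside the GENCODE gene and so not printed. At least 2 CCAAT matches were found in 9.53% of the 35116 windows in the table and at least 2 GGGCGG matches in 24.3%. The SREBF1 window held 0 CCAAT and 3 GGGCGG matches, and 13.9% of all windows held at least 3 of the latter. Some genes had several windows, for several starts. Both ACLY windows and that of ELOVL5 also held 2 CCAAT matches, the 3 windows of ACACA held 0, 1 and 2, the 2 of ACSS2 held 1 and 0, and the windows of FADS1 and ELOVL6 and both of FADS2 held 0. GGGCGG matches numbered 5, 6 and 0 in the windows of ACACA, 3 and 4 in those of ACLY, 1 and 3 in ACSS2 and 0 and 1 in FADS2. The window of FADS1 held 2, that of ELOVL6 held 1 and that of ELOVL5 held 0. All windows of ACLY, ELOVL6, FADS1, FADS2 and ACSS2 lay inside the gene as GENCODE places it. The sterol element consensus TCACNCCAC, found in 0.883% of windows, matched none of the members' windows, which says only that these letters are not in the stretch searched. E-boxes (CANNTG, the same on both strands, in 61.8% of windows) were absent from the windows of SCD and SREBF1, and that of ELOVL5 held 1, spelled CACGTG. One window of ACACA held 3 E-boxes, and 1 window each of FADS2 and ACSS2 held 1.

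The libraries held 8033951 to 12901505 reads, counted from the FPKM values (fragments per kilobase of a transcript, relative to the total of the library), which stood in whole-number ratios. The members had 26 to 2855 reads per library, with the fewest in ELOVL6. Of 8 markers of the line and of epithelium, 7 were above 1 FPKM in every library, while CDH1 (E-cadherin) stayed at 0.0867 to 0.381 FPKM. ERBB2 was at 46.1 to 145.7 FPKM and KRT7 at 107 to 367.7 FPKM. EPCAM was only at 2.29 to 5.54 FPKM and PAX8 at 2.78 to 7.64 FPKM. Adipocyte, hepatocyte, and leukocyte and endothelial marker lists summed to at most 1.81, 0.667 and 0.289 FPKM in any library, and ADIPOQ, TTR, APOA2 and CD68 were at 0 in all 12. CDKN1A and GADD45A, which respond to DNA damage, rose with doxorubicin by 2.31 and 2.69 on the log2 scale (limma adjusted p = 0.000521 and 5.37e-05), and MDM2 differed by -0.25 (adjusted p = 0.413). DMSO library 2, IN10018 library 1 and combination library 2 stood apart from the others of their treatment along 1 direction, which carried 55.4% of all variation within treatments. ELOVL5, ACLY, ACACA, FADS1 and SCD, at the 4.51 to 21.7 percentile of all loadings on it, tended to be low in those libraries. FADS2 and SREBF1, at the 77.4 and 75.5 percentile, tended the other way. Their highest IN10018 values, 3.57 and 7 FPKM, were those of IN10018 library 1. FASN and ACSS2 were at the 62.8 and 52 percentile. In the combination the split was less clear, with positions of -21.7, 25.3 and -3.54 along that direction for libraries 1, 2 and 3. A chi-square on read counts, per degree of freedom, was 96.9 and 57.9 between combination library 1 and libraries 2 and 3. Between libraries 2 and 3 it was 32.3, so library 1 differed most by that measure. Results without the libraries that stood apart leave out combination library 2 and keep library 1. Genes annotated as small, miscellaneous, ribosomal or mitochondrial transfer RNA together took 16.9% to 40.7% of all FPKM, most in combination library 1. In bulk RNA, fewer cells that express a gene and less of its RNA per cell cannot be told apart.

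SCD (chr10:100347124-100364834, plus strand, GRCh38) had the widest range of the set. Its level was 12.8, 7.68 and 12.6 FPKM in DMSO, 7.88, 6.89 and 5.44 FPKM with doxorubicin, 36.4, 51.6 and 47.9 FPKM with IN10018, and 22.4, 20.1 and 26.6 FPKM in the combination. Every library with IN10018 lay above every library without it, and the IN10018 libraries lay above those of the combination. Means were 11 ± 2.90 FPKM in DMSO, 6.74 ± 1.23 with doxorubicin, 45.3 ± 7.93 with IN10018 and 23.0 ± 3.30 in the combination (SD, n = 3 each). These are ratios of 4.11 for IN10018 to DMSO and 3.42 for the combination to doxorubicin. On the scale of log2(FPKM + 1), which is used for all differences here and shrinks those of low genes, they were 1.96 (SE 0.23) and 1.64 (SE 0.23). SCD had no overlapping gene in the annotation used.

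**Figure D1:**
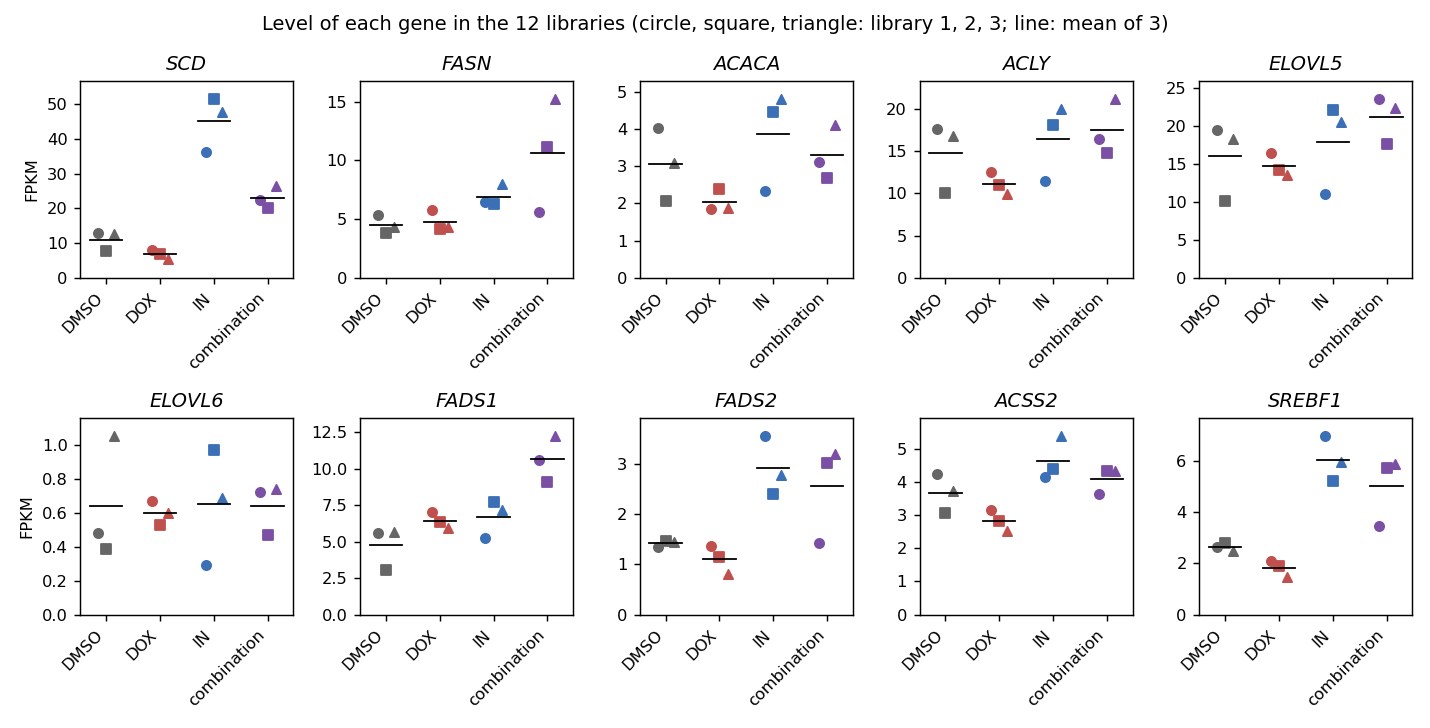
Level in FPKM (vertical axis, starting at 0, scaled for each gene) of the 10 genes in DMSO, doxorubicin (DOX), IN10018 (IN) and the combination; circle, square and triangle are libraries 1, 2 and 3 and the line is their mean. SCD reaches 36.4 to 51.6 FPKM with IN10018 against 7.68 to 12.8 in DMSO, SREBF1, FADS2 and FASN are also higher in each IN10018 library than in each DMSO library, and ELOVL6 stays near or under 1 FPKM.

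SCD was lower where doxorubicin was added to IN10018. The combination was below IN10018 alone by a log2 difference of -0.94 (SE 0.23, limma adjusted p = 0.0134 over 11301 genes), lower in 3 of 3 libraries than in any with IN10018 alone, at a ratio of 0.508 between means. Leaving out IN10018 library 2 took this to -0.84 (adjusted p = 0.0534). The combination was at 1.02 from DMSO (SE 0.23), and at 0.92 without combination library 3. Doxorubicin alone differed from DMSO by -0.62 (SE 0.23, adjusted p = 0.125), and its highest library (7.88 FPKM) lay just above the lowest of DMSO (7.68 FPKM, library 2). Without DMSO library 2 that difference was -0.84 (adjusted p = 0.0362), and it also passed with median-ratio scaling (adjusted p = 0.0271) and once GC content and length were corrected for (adjusted p = 0.00531). That correction was chosen after seeing the data, and it called 1181 of all genes lower, against 237 without it. The interaction, by which the effect of doxorubicin with IN10018 exceeds that without, was -0.32 (SE 0.32, 95% interval -1.02 to 0.38, adjusted p = 0.692), so this size of interaction was not told from 0. All of these comparisons share libraries with those that singled out SCD, so their p-values are not independent of that choice.

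Within a library, shifts that touch all genes alike cancel in a ratio. SCD made up 17.4%, 17.3% and 18.1% of the summed FPKM of the 10 genes in DMSO and 13.4%, 13.4% and 11.7% with doxorubicin. With IN10018 the share was 41.5%, 41.9% and 38.9%, and in the combination 24.7%, 22.6% and 22.9%. The 4 treatments did not overlap, in the order IN10018, combination, DMSO and doxorubicin, and the SD within a treatment was 0.451 to 1.61 percentage points. The sum itself was 44.4 to 73.7 FPKM in DMSO, 46.6 to 58.9 with doxorubicin, 87.8 to 123 with IN10018 and 88.9 to 116 in the combination, so all sums with IN10018 lay above all without it, while DMSO overlapped doxorubicin and IN10018 alone overlapped the combination. The FPKM of SCD over that of ELOVL5 was 0.654 to 0.757 in DMSO, 0.4 to 0.484 with doxorubicin, 2.33 to 3.3 with IN10018 and 0.95 to 1.19 in the combination. Since SCD was chosen for its level under IN10018, these shares are a description.

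**Figure D2:**
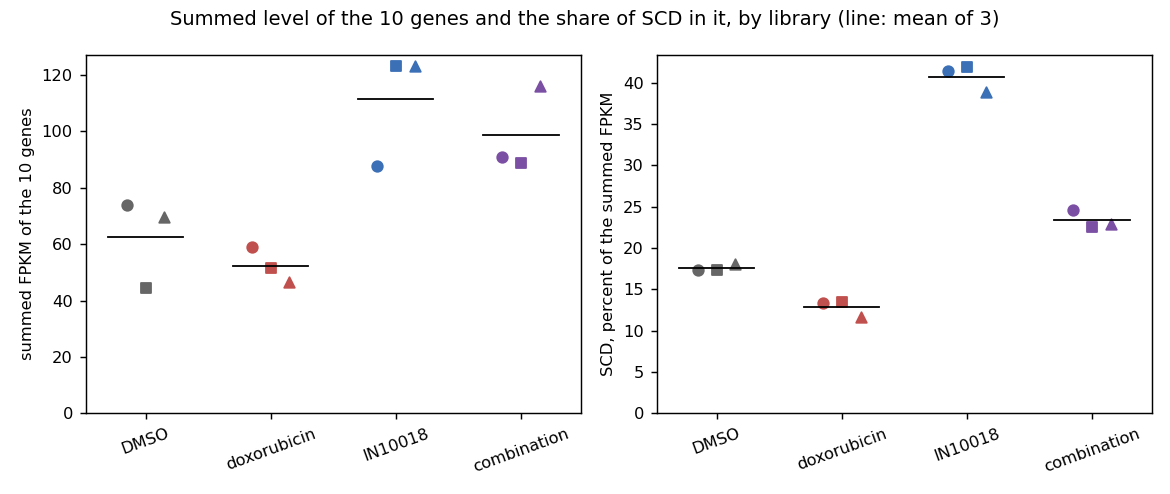
Left, summed FPKM of the 10 genes in each library; right, SCD as a percentage of that sum; both vertical axes start at 0, symbols are libraries 1 to 3 and lines are means of 3. DMSO library 2 has the lowest sum of all, 44.4 FPKM, but its SCD share of 17.3% is next to those of the other DMSO libraries (17.4% and 18.1%).

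SREBF1 (chr17:17810399-17837002, minus strand) had the next largest difference with IN10018. It stood at 2.66, 2.81 and 2.51 FPKM in DMSO, 2.11, 1.91 and 1.48 with doxorubicin, 7, 5.21 and 5.97 with IN10018, and 3.47, 5.74 and 5.90 in the combination. All libraries with IN10018 lay above all without it, with log2 differences of 0.94 (SE 0.19) from DMSO and 1.07 (SE 0.19) from doxorubicin. The combination was above DMSO by 0.70 (SE 0.19, adjusted p = 0.025), a call lost under 11 of 17 alternatives, with adjusted p from 0.00255 to 0.45 over all of them. Without DMSO library 1 or 3 its adjusted p was 0.0625 and 0.083, and without combination library 2 or 3 it was 0.093 and 0.128. Doxorubicin alone was at -0.37 from DMSO (SE 0.19, adjusted p = 0.266), with all 3 libraries below those of DMSO, and the combination at -0.25 from IN10018 (SE 0.19, adjusted p = 0.419). The gene overlaps RAI1 on the other strand and holds the microRNA gene MIR33B, and whether counting used the strand is not stated.

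Among genes that control SREBP, INSIG1, the sterol-sensing protein that holds SREBP in the endoplasmic reticulum and is itself a target of SREBP, was 1.26 to 1.76 FPKM in DMSO, 0.766 to 1.00 with doxorubicin, 3.25 to 5.69 with IN10018 and 2.87 to 4.08 in the combination. INSIG1 rose in the combination against DMSO by 0.80 (SE 0.19, adjusted p = 0.0123), and doxorubicin alone was at -0.42 (adjusted p = 0.213). SREBF2, the factor of the sterol branch, had means of 5.44 ± 0.913 FPKM in DMSO, 4.84 ± 0.85 with doxorubicin, 8.57 ± 1.08 with IN10018 and 10.02 ± 2.90 in the combination, and rose in the combination against DMSO by 0.75 (SE 0.21, adjusted p = 0.0301). The SREBF1 level was 0.413 to 0.606 of that of SREBF2 in DMSO, 0.372 to 0.393 with doxorubicin, 0.623 to 0.806 with IN10018 and 0.453 to 0.587 in the combination, with all IN10018 libraries above and all doxorubicin libraries below those of the other treatments. SCAP, which escorts SREBP to the Golgi, differed from DMSO by 0.23 (SE 0.27) with IN10018 and 0.72 (SE 0.27, adjusted p = 0.0925) in the combination. SREBF2 and SCAP were named for their difference with IN10018, and the lists were chosen with earlier results of these data known. The p-values of INSIG1, SREBF2 and SCAP for the combination against DMSO are therefore a description. MLX, the partner of the carbohydrate-response factors, fell with doxorubicin by 0.58 on the log2 scale (SE 0.16, adjusted p = 0.0443). Of the 11 of 12 genes tested in this list, 0 rose (5.92% of all genes tested) and 1 fell (2.1%) with doxorubicin, 0 rose (14.6%) and 0 fell (1.43%) in the combination against IN10018, and 2 rose in the combination against DMSO (14.3%). The call of INSIG1 was lost under 1 alternative, without combination library 3, that of SREBF2 under 10 and that of MLX under 8, and for MLX leaving out any of the 6 libraries compared was enough.

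The enzymes that supply acetyl-CoA and malonyl-CoA differed little next to SCD. ACLY (chr17:41866908-41930542, minus strand) had 17.6, 9.97 and 16.8 FPKM in DMSO, 12.6, 10.9 and 9.92 with doxorubicin, 11.4, 18 and 19.9 with IN10018, and 16.4, 14.7 and 21.1 in the combination. Its low values in DMSO and IN10018 were those of the libraries that stood apart, and only the combination and doxorubicin did not overlap. ACSS2 (chr20:34872146-34927962, plus strand) had 4.25, 3.07 and 3.72 FPKM in DMSO, 3.15, 2.82 and 2.52 with doxorubicin, 4.14, 4.39 and 5.40 with IN10018, and 3.63, 4.33 and 4.33 in the combination. ACACA (chr17:37084988-37406818, minus strand) had 4.02, 2.05 and 3.09 FPKM in DMSO, 1.85, 2.38 and 1.88 with doxorubicin, 2.34, 4.46 and 4.81 with IN10018, and 3.11, 2.68 and 4.10 in the combination. Again the lowest DMSO and IN10018 values came from the libraries that stood apart. The log2 differences of IN10018 from DMSO were 0.15 (SE 0.25) for ACLY, 0.27 (SE 0.16) for ACSS2 and 0.25 (SE 0.24) for ACACA, and those of the combination from doxorubicin were 0.59 (SE 0.25), 0.41 (SE 0.16) and 0.49 (SE 0.24). With doxorubicin against DMSO the 3 were at -0.35, -0.28 and -0.39 (adjusted p = 0.469, 0.326 and 0.361), and without the libraries that stood apart ACLY and ACACA were at -0.59 and -0.58 (adjusted p = 0.0241 and 0.0216). Leaving these libraries out was chosen after seeing the data, and it called 1709 of all genes lower, against 237 with all libraries. In the combination ACSS2 was at -0.14 from IN10018 (adjusted p = 0.591), and at -0.38 with median-ratio scaling (adjusted p = 0.0344). ACSS2 overlaps GGT7 on the other strand at its start.

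FASN (chr17:82078333-82098332, minus strand) had its highest mean in the combination. It stood at 5.36, 3.79 and 4.36 FPKM in DMSO, 5.81, 4.14 and 4.35 with doxorubicin, 6.42, 6.28 and 7.97 with IN10018, and 5.57, 11.1 and 15.2 in the combination. The 3 combination libraries were spread over a wider range than those of the other treatments, and library 1 lay below all IN10018 libraries. FASN rose in the combination against DMSO by 0.99 (SE 0.27, adjusted p = 0.0267), with all 3 libraries above those of DMSO. That call was lost under 10 of 17 alternatives, and adjusted p ran from 0.000829 without combination library 1 to 0.154 without the libraries that stood apart. Leaving out DMSO library 2 or 3 gave 0.0763 and 0.0768, and combination library 2 or 3 gave 0.0843 and 0.144. IN10018 was above DMSO by 0.52 (SE 0.27) and the combination above doxorubicin by 0.93 (SE 0.27), the latter with overlap. Doxorubicin alone was at 0.07 from DMSO (SE 0.27, adjusted p = 0.92), with a sign that changed under 4 alternatives. The transcripts of FASN and SREBF1 are rich in GC, at 65.3% and 63.3%, against 46.0% to 56.6% for the other members, and the GC and length correction took their differences between the combination and DMSO to 0.42 and 0.12 (adjusted p = 0.066 and 0.45).

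Among the elongases and front-end desaturases, FADS1 was called and ELOVL5 was not. FADS1 (chr11:61799625-61829318, minus strand), the delta-5 desaturase that forms arachidonate, had 5.61, 3.03 and 5.69 FPKM in DMSO, 7.02, 6.36 and 5.94 with doxorubicin, 5.24, 7.69 and 7.16 with IN10018, and 10.6, 9.06 and 12.3 in the combination. Every combination library lay above every other library. FADS1 rose in the combination against DMSO by 1.04 (SE 0.22, adjusted p = 0.00703), a call that held under all 17 alternatives (adjusted p 0.00529 to 0.0453). Against IN10018 the combination was at 0.60 (SE 0.22, adjusted p = 0.0796), and doxorubicin against DMSO at 0.40 (SE 0.22, adjusted p = 0.31), both without overlap between the groups. FADS2 (chr11:61792980-61867354, plus strand), the delta-6 desaturase that opens the same route, had 1.34, 1.47 and 1.45 FPKM in DMSO, 1.36, 1.15 and 0.816 with doxorubicin, 3.57, 2.41 and 2.78 with IN10018, and 1.43, 3.02 and 3.21 in the combination. IN10018 was above DMSO in 3 of 3 libraries, by 0.69 (SE 0.21), and the combination above doxorubicin by 0.72 (SE 0.21), whereas the combination against DMSO was at 0.51 (SE 0.21, adjusted p = 0.114). Combination library 1 was at the level of DMSO for FADS2, and without it the difference was 0.77 (adjusted p = 0.0077). The FADS2 level was 0.239 to 0.485 of that of FADS1 in DMSO, 0.138 to 0.193 with doxorubicin, 0.313 to 0.68 with IN10018 and 0.135 to 0.333 in the combination, so DMSO and IN10018 lay above doxorubicin and the combination spanned both. FADS1 and FADS2 overlap on opposite strands, and FADS2 overlaps FEN1 on the same strand, so their reads may be shared.

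ELOVL5 (chr6:53267398-53349179, minus strand) had 19.6, 10.1 and 18.4 FPKM in DMSO, 16.5, 14.2 and 13.6 with doxorubicin, 11, 22.2 and 20.5 with IN10018, and 23.6, 17.7 and 22.4 in the combination. Its lowest DMSO and IN10018 values came from the libraries that stood apart, and log2 differences were 0.14 (SE 0.28) for IN10018 against DMSO and 0.43 (SE 0.28, adjusted p = 0.345) for the combination against DMSO. ELOVL6 (chr4:110045846-110199199, minus strand) was low throughout, at 0.48, 0.39 and 1.06 FPKM in DMSO, 0.67, 0.53 and 0.60 with doxorubicin, 0.29, 0.97 and 0.69 with IN10018, and 0.72, 0.47 and 0.74 in the combination. It reached 1 FPKM in 1 library, so it was not tested, and all 4 treatments overlapped. By mean FPKM over the 12 libraries SCD (21.5), ELOVL5 (17.5) and ACLY (15) had the highest means, followed by FADS1 (7.14), FASN (6.70), SREBF1 (3.90), ACSS2 (3.81), ACACA (3.06), FADS2 (2) and ELOVL6 (0.635), and the ranges of neighbours in this order overlapped. The order differed by treatment: the mean of SCD was below those of ELOVL5 and ACLY in DMSO (11, 16 and 14.8) and with doxorubicin (6.74, 14.8 and 11.1), and above them with IN10018 and, with overlap, in the combination.

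Of the 10 members, 9 passed the filter of at least 1 FPKM in at least 3 libraries. Doxorubicin against DMSO called 0 of the 9, where 5.92% of all 11301 genes were called higher and 2.1% lower. At an unadjusted p under 0.05, 0 of the 9 were higher (13.9% of all genes) and 1 was lower (8.56%). All libraries of the first treatment lay above those of the second in 1 member (19% of all genes) and below in 1 (12.2%). The combination against IN10018 called 1 lower, SCD, and 0 higher, beside 1.43% of all genes lower and 14.6% higher, with 1 member (24.6% of all genes) above without overlap and 1 below (4.56%). SCD was chosen for its level in these IN10018 libraries, so its call here is a description that is not independent of the choice. The combination against DMSO, where SCD is not tested, called FADS1, SREBF1 and FASN higher and 0 lower, beside 14.3% of all genes higher and 1.28% lower. These genes and SCD, 4 members, lay above DMSO without overlap (24.8% of all genes), with 0 below (4.44%). The libraries of that comparison took part in the choice of the set, so nothing is read from these counts. The interaction called 0 of the 9 and 0% of all genes, and at an unadjusted p under 0.05 it held 0 of the 9 and 4.75% of all genes higher and 1.35% lower. In IN10018 against DMSO 4 of 9 had all IN10018 libraries above all DMSO libraries (3.88% of all genes). In the combination against doxorubicin it was 8 of 9 (24.8% of all genes). Both comparisons took part in the choice of the set, so nothing is read from these counts either.

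The combination libraries were shifted as a whole, with a median over all genes of 0.20 against DMSO, 0.20 against IN10018 and 0.23 against doxorubicin, while the medians for IN10018 and doxorubicin against DMSO were 0.00 and -0.01. The members' medians were 0.44 for IN10018 against DMSO and 0.64 for the combination against doxorubicin, -0.28 for doxorubicin against DMSO, -0.14 for the combination against IN10018 and 0.51 for the combination against DMSO. Relative to the shift, SCD was 0.82 above DMSO and 1.14 below IN10018 in the combination. The median interaction over all genes was 0.245, and that of SCD was at -0.57 relative to it, which was not tested. With median-ratio scaling the medians of all genes came to between -0.02 and 0.02, and 6 of 9 members lay without overlap above DMSO with IN10018 (3.42% of all genes) and 6 of 9 above doxorubicin in the combination (8.62% of all genes). SCD, FADS1, ACSS2 and SREBF1 were in both groups of 6. Both comparisons took part in the choice of the set, so nothing is read from these counts. On that scale 4 members (SCD, ACLY, ACSS2 and SREBF1) lay below DMSO with doxorubicin without overlap, beside 16.6% of all genes, where the unscaled values gave 1. In the combination 3 (SCD, ACSS2 and SREBF1) lay below IN10018, beside 12.5% of all genes, and 3 (SCD, FASN and FADS1) above DMSO, beside 15.3%. These comparisons also share libraries with those behind the choice of the set.

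**Figure D3:**
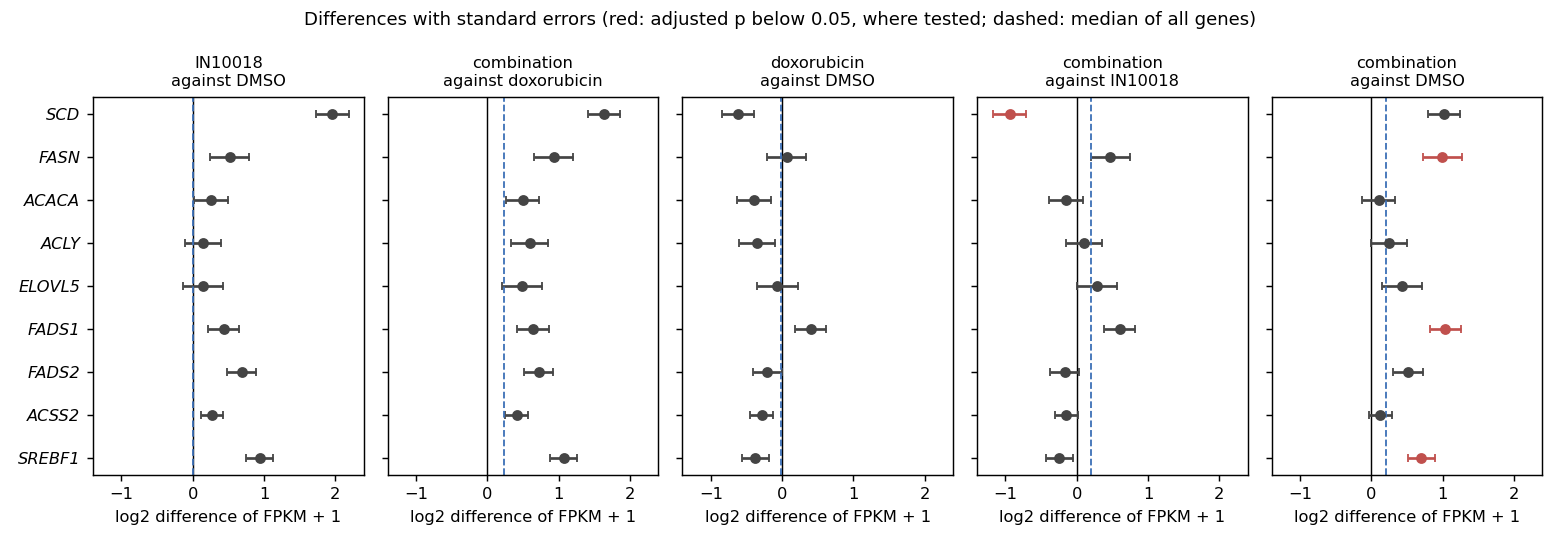
Log2 differences of FPKM + 1 (horizontal axis) of the 9 tested genes in 5 comparisons, with standard errors; red marks an adjusted p below 0.05 in the 3 comparisons on the right, where SCD is left untested for the combination against DMSO, and the dashed line is the median of all genes. SCD is at 1.96 for IN10018 against DMSO and at -0.94 for the combination against IN10018, and FASN, FADS1 and SREBF1 are red for the combination against DMSO.

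**Figure D4:**
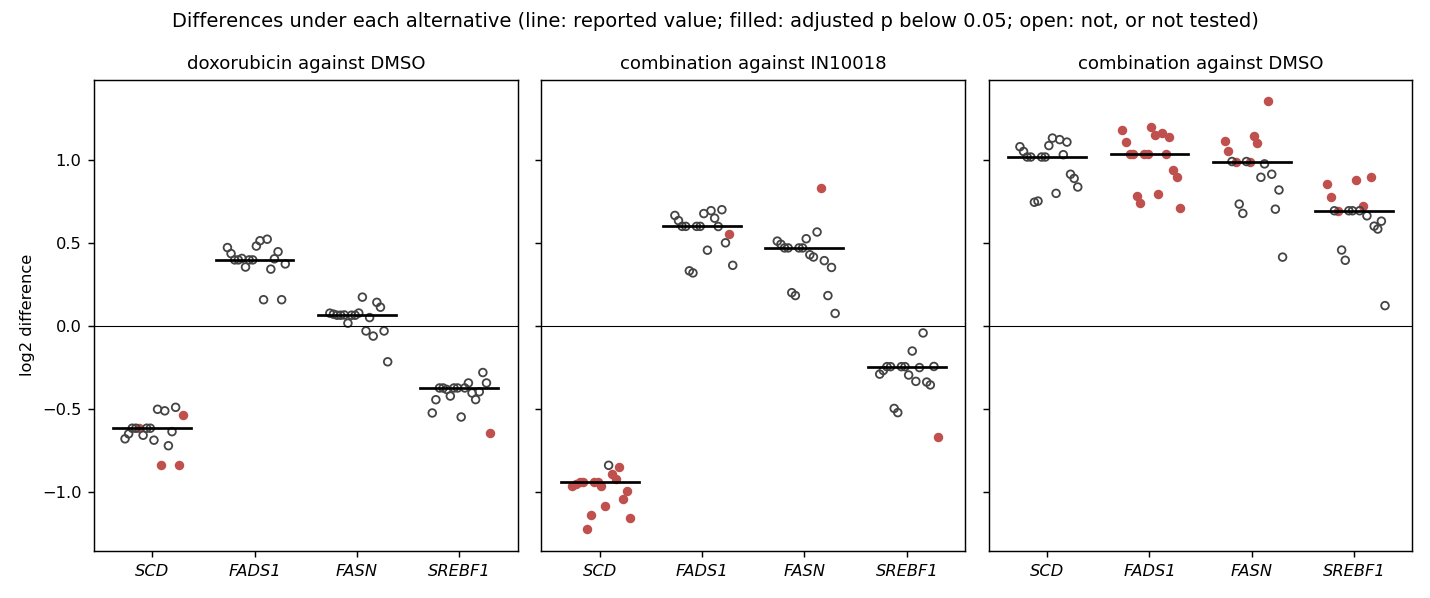
Log2 differences (vertical axis) of SCD, FADS1, FASN and SREBF1 in the 3 tested comparisons under 17 alternatives, filled where the adjusted p was below 0.05 (SCD in the combination against DMSO is open, being untested); the line is the reported value. FADS1 is filled throughout for the combination against DMSO, while SREBF1 spans 0.12 to 0.90 there and FASN 0.42 to 1.36.

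Genes around the pathway were described by lists drawn from general knowledge. In the supply of precursors and NADPH, 5 of 8 genes were tested, and with doxorubicin 1 fell (2.1% of all genes) and 0 rose (5.92%). That gene was IDH1, the cytosolic NADPH-forming isocitrate dehydrogenase, which fell by 0.84 on the log2 scale (SE 0.22, adjusted p = 0.0333), from 6.48 to 9.96 FPKM in DMSO to 3.2 to 4.63, a call lost under 7 of 17 alternatives, among them leaving out DMSO library 1 or 3 or any doxorubicin library. PGD, an NADPH-forming enzyme of the pentose phosphate route, was 17.3 to 25.2 FPKM in DMSO, 14.1 to 16.2 with doxorubicin, 26.3 to 32 with IN10018 and 20.3 to 25.9 in the combination (doxorubicin against DMSO -0.51, adjusted p = 0.126). Its 3 doxorubicin libraries lay below and its 3 IN10018 libraries above all those of DMSO, and the order of the 4 means was that of SCD. Unlike SCD, PGD in the combination (mean 23.3 FPKM) overlapped DMSO (mean 21.9 FPKM), and PGD was named for its difference with IN10018.

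Of the other elongation and desaturation enzymes 11 of 13 were tested, of which 1 rose with doxorubicin (5.92% of all genes), 2 rose in the combination against IN10018 (14.6%) and 0 fell in either. FADS3, a relative of FADS1 and FADS2 that desaturates sphingoid bases, had 10.6 to 13.5 FPKM in DMSO, 25.6 to 33.2 with doxorubicin, 14.9 to 19.8 with IN10018 and 26 to 46.1 in the combination. It rose by 1.26 with doxorubicin (SE 0.22, adjusted p = 0.00458) and by 1.06 in the combination against IN10018 (SE 0.22, adjusted p = 0.00615). ELOVL4, the elongase of very long chains, rose in the combination against IN10018 by 0.90 (SE 0.22, adjusted p = 0.0123), a call lost without combination library 3. SCD5, the other human stearoyl-CoA desaturase, had means of 2.46 ± 0.797 FPKM in DMSO, 2.44 ± 0.409 with doxorubicin, 2.58 ± 0.821 with IN10018 and 2.95 ± 0.17 in the combination, all overlapping. TECR, the last enzyme of the elongation cycle, was at 0.65 in the combination against DMSO (SE 0.23, adjusted p = 0.069).

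In cholesterol synthesis and uptake 17 of 20 genes were tested, all 17 had a positive difference between IN10018 and DMSO (50.5% of all genes did), 8 lay above DMSO without overlap (3.88% of all genes) and 9 overlapped, and the median was 0.52. None of this was tested. FDFT1, squalene synthase, was 9.79 to 11.8 FPKM in DMSO, 6.88 to 8.61 with doxorubicin, 15.6 to 19.4 with IN10018 and 13.1 to 17.8 in the combination. MVD, mevalonate diphosphate decarboxylase, differed from this in rising with doxorubicin, by 0.91 (SE 0.21, adjusted p = 0.0202), from 17.3 to 19.1 FPKM in DMSO to 30.4 to 37.1, and in the combination against IN10018 by 0.74 (SE 0.21, adjusted p = 0.0312). The former call was lost under 4 of 17 alternatives and the latter under 11, which included leaving out any IN10018 library. Doxorubicin called 1 of the 17 higher (5.92% of all genes) and 0 lower, the combination against IN10018 likewise (14.6%), and the combination against DMSO called 3 higher (14.3%) and 0 lower.

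**Figure D5:**
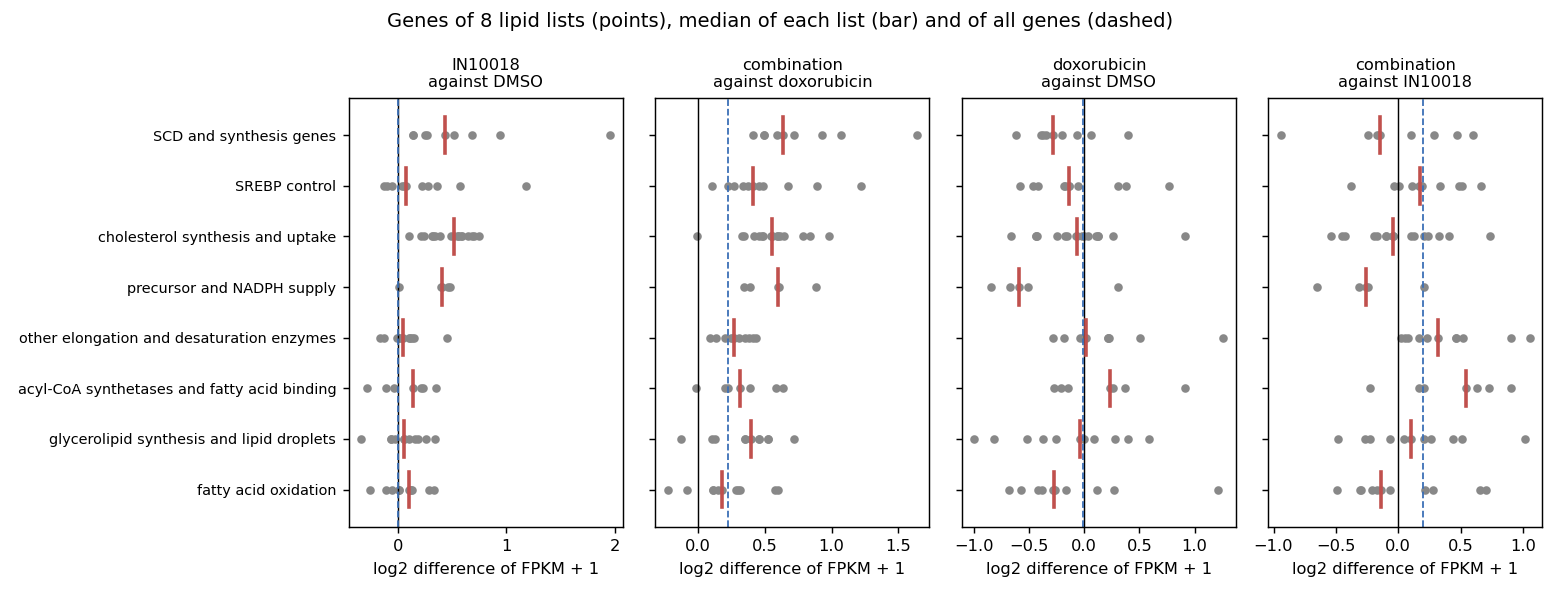
Log2 differences of FPKM + 1 (horizontal axis) of the tested genes (points) of 8 lists in 4 comparisons, with the median of each list (bar) and of all genes (dashed line). With IN10018 against DMSO the medians of SCD and synthesis genes (0.44), cholesterol synthesis and uptake (0.52) and precursor and NADPH supply (0.41) lie to the right of the other lists, which are between 0.05 and 0.14.

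The genes whose pattern was most like that of SCD were looked for among the 4472 with a mean of at least 5 FPKM, by the root mean square difference of their centred log2(FPKM + 1) values over the 12 libraries. The nearest were TUBA1A (0.606), an alpha-tubulin, PSAP (0.619), the precursor of the lysosomal saposins, MSMO1 (0.621), a sterol demethylating enzyme, ARHGAP1 (0.635), a GTPase-activating protein, and FLNA (0.642), filamin A. The spread of SCD itself on this measure was 1.01 and the median over all genes compared was 1.04, so the likeness was moderate. MSMO1 had means of 6.64 ± 0.935 FPKM in DMSO, 4.65 ± 0.452 with doxorubicin, 11.6 ± 3.11 with IN10018 and 7.66 ± 1.97 in the combination, and TUBA1A had 39.3 ± 3.60, 22.2 ± 1.62, 60.5 ± 7.88 and 46.5 ± 6.98 in the same order. Of the members that reached 5 FPKM, ACLY was at place 161, FASN at 207, ELOVL5 at 544 and FADS1 at 703.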

How the data were processed

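RNA of SK-OV-3 cells was sequenced as strand-directional libraries, 3 for each of 4 treatments. The values analysed are FPKM per Ensembl gene as deposited by the authors. TopHat, Cufflinks and Cuffdiff, with the genome hg38, are named in the submitters' processing notes; versions, annotation and use of strand in counting: not given in the sources used here. FPKM values of all 24090 genes above 0 in at least 3 libraries stood in whole-number ratios (relative tolerance 3e-12), from which reads and depth were recovered. Genes sharing a symbol (93 symbols) were summed. A model with the 4 treatments was fitted to log2(FPKM + 1) of 11301 genes (at least 1 FPKM in at least 3 libraries) with limma 3.58.1 in R 4.3.3, with a trend, and tested two-sided at a Benjamini-Hochberg adjusted p of 0.05 over all of them. The Cuffdiff test could not be applied to FPKM. The code was tested on simulated data. Errors are SD of FPKM and SE of log2 differences.

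Positions and GC content come from GENCODE 29 (GRCh38) and promoters from RefSeq. The members and lists were chosen with earlier results of these data known. Named genes were all members, up to 3 called genes per list (smallest p, in doxorubicin against DMSO or the combination against IN10018), up to 2 per list of at least 5 FPKM with the largest mean IN10018 difference, INSIG1, SREBF2 and SCD5, and the 5 genes nearest to SCD. A gene that this rule names is not reported here. The alternatives tried were pseudocounts of 0.1 and 0.5, no filter or one at 5 FPKM, other scaling (median ratios, quantiles), a fit of the compared groups alone, a replicate block, voom on the recovered reads and each library left out. Leaving out the 3 libraries that stood apart, and a correction for GC content and length (splines with 5 degrees of freedom), were chosen after seeing the data.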

Additional observations from a re-analysis of the deposited data

How the results depend on the processing

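The SCD difference was 1.74 to 2.11 for IN10018 against DMSO and 1.37 to 1.78 for the combination against doxorubicin over the alternatives. Doxorubicin against DMSO went from 0 members called to 1 with median-ratio scaling (SCD), 3 without the libraries that stand apart (ACACA, ACLY, SCD) and 2 with the GC and length correction (SCD, SREBF1), and leaving out 1 library each gave 0 to 1. Over all genes, that comparison called 669 higher and 237 lower as reported, and 832 and 471 with median-ratio scaling. Without the libraries that stand apart it called 1312 and 1709, and with the GC and length correction 1280 and 1181. The combination against IN10018 went from 1 to 2 with median-ratio scaling and with quantiles (ACSS2, SCD), 2 without the libraries that stand apart (FADS1, SCD) and 4 with the GC and length correction (ACSS2, FADS2, SCD, SREBF1), and leaving out 1 library each gave 0 (without IN10018 2, SCD adjusted p = 0.0534) to 2 (without combination 1: FASN, SCD). Over all genes, it called 1653 higher and 162 lower as reported, 1031 and 470 with median ratios and 1021 and 583 with quantiles. Without the libraries that stand apart the counts were 1721 and 294, and with the GC and length correction 1533 and 1332 of 11226 genes. Without combination 1 they were 2062 and 145. With SCD left aside as untested, the combination against DMSO went from FADS1, SREBF1 and FASN called to FADS1 alone under several alternatives. These were no filter, median-ratio scaling, quantiles, the compared groups alone, leaving out the libraries standing apart, and the GC and length correction. Leaving out 1 library each gave FADS1 alone without DMSO 3, combination 2 or combination 3. Without combination 1, FADS2 was called as well as FADS1, SREBF1 and FASN. The interaction stayed at 0 under all alternatives run. The cause of these changes was not tested.

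Differences near 0 changed sign. With median-ratio scaling, quantiles and the GC and length correction, in this order, ACLY was at -0.18, -0.18 and -0.12 in the combination against IN10018 and, against DMSO, ACACA was at -0.11, -0.18 and -0.0089, ACLY at -0.027, -0.079 and -0.034, and ACSS2 at -0.10, -0.17 and -0.17. In the combination against IN10018 ELOVL5 came to -0.0006 with median ratios and -0.0085 with the GC and length correction. That correction gave -0.22 for FASN with doxorubicin. Without the libraries that stand apart, FASN with doxorubicin was at -0.03, ACLY in the combination against IN10018 at -0.023 and ACSS2 in the combination against DMSO at -0.0038. Leaving out 1 library each gave, with doxorubicin, FASN -0.061 to 0.17 and ELOVL5 -0.34 to 0.10; in the combination against IN10018, ACLY -0.13 to 0.25, ELOVL5 -0.016 to 0.46 and FADS2 -0.31 to 0.082; and ACACA -0.089 to 0.27 in the combination against DMSO.

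With the replicate block, and SCD left aside, FADS1 and FASN were called in the combination against DMSO. The counts of the other comparisons did not change. Libraries of the same number did not pair: 5 of 18 pairs correlated above 0.1, from -0.678 to 0.718, and 1 of 12 libraries correlated best with its own number. Over all genes, the combination against DMSO called 1616 higher and 145 lower as reported. With median ratios it called 875 and 416, and with the GC and length correction 1308 and 1060. The 26 to 83 reads of ELOVL6 limit what can be said of it.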

Other observations

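Genes that carry, store and burn fatty acids were measured alongside those that make them. In activation and binding, 7 of 11 genes were tested, and in the combination against IN10018 2 rose (14.6% of all genes tested) and 0 fell, while doxorubicin alone called 0 (5.92% higher and 2.1% lower). FABP5, a fatty acid binding protein, was 24.2 to 27.6 FPKM in DMSO, 33.1 to 36.1 with doxorubicin, 20.5 to 23.4 with IN10018 and 26.7 to 40.3 in the combination, which was above IN10018 by 0.63 (SE 0.19, limma adjusted p = 0.034). SLC27A4, a fatty acid transporter with acyl-CoA synthetase activity, was above IN10018 in the combination by 0.91 (SE 0.29, adjusted p = 0.0471), with overlap, and was 6.80 to 7.37 FPKM in DMSO and 11.4 to 17.7 with doxorubicin (0.92, adjusted p = 0.0682). ACSL3, a synthetase of lipid droplets, was at 0.90 in the combination against DMSO (SE 0.29, adjusted p = 0.0536). The call of SLC27A4 was lost under 12 alternatives and that of FABP5 under 8.

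Of 11 of 16 genes of glycerolipid synthesis and lipid droplets tested, 1 fell (2.1% of all genes) and 0 rose with doxorubicin, and 1 rose in the combination against IN10018 (14.6%). GPAT3, a glycerol-3-phosphate acyltransferase, fell by 0.99 on the log2 scale (SE 0.21, adjusted p = 0.0138), from 3.33 to 6.42 FPKM in DMSO to 1.66 to 2.29. PNPLA2, the adipose triglyceride lipase, rose in the combination against IN10018 by 1.02 (SE 0.24, adjusted p = 0.0114), from 5.88 to 8.48 to 10.3 to 20.2 FPKM. PLIN3, a lipid droplet coat protein, was 16.1 to 22.0 FPKM in DMSO and 8.26 to 11 with doxorubicin (-0.81, adjusted p = 0.0997). In fatty acid oxidation, 11 of 14 genes were tested, 1 rose with doxorubicin (5.92% of all genes) and 2 rose in the combination against IN10018 (14.6%). ACADS, the short-chain acyl-CoA dehydrogenase, rose with doxorubicin by 1.22 (SE 0.20, adjusted p = 0.00288), from 2.09 to 3.21 FPKM to 7.03 to 8.38, and in the combination against IN10018 by 0.70 (SE 0.20, adjusted p = 0.0283). ACADM, its medium-chain relative, rose in the combination against IN10018 by 0.66 (SE 0.15, adjusted p = 0.00999). Of these calls, that of GPAT3 was lost under 5 alternatives, PNPLA2 under 4 and ACADM under 2, and ACADS lost that against IN10018 under 9 and kept that with doxorubicin under all. HADHA and ACADVL, of the long-chain steps, were at -0.16 and -0.28 with doxorubicin (adjusted p = 0.73 and 0.462).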
